A study of Mus musculus with 22 samples.

Results

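Wild-type mouse embryonic stem cells (ESCs) of the E14 line were compared in serum/2i/LIF medium (TG2A_S2iL, titled TG2A.NG.PB.S2iL, 2 libraries) and in serum/LIF medium (TG2A_ESC, titled TG2A.NG.PB.ESC, 2 libraries). These 4 libraries were chosen by their sample titles from 22 RNA-seq libraries in 10 groups, and no measured value was used to choose them. The groups share the cell line and the wild-type genotype given in the labels, and LIF was present in both media. The rest of the study deals with Ezh2 and primitive endoderm, and 3 of its groups are used here only beside the medium effect. E14_ESC (3 libraries) is a second set of wild-type E14 ESCs in LIF medium. KO10_S2iL (2 libraries) and KO10_SL (3 libraries) are cells of 1 Ezh2 knockout clone in the same 2 media, with the genotype spelled "Eeh2-null" in the labels. The time spent in 2i is not given in the labels. They do not say that replicates were separate cultures, so the p-values measure only the spread between libraries of a group, which may be technical. That spread was estimated over all 22 libraries in 10 groups, not from the 4 compared libraries alone.

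The medium called 2i adds a pair of kinase inhibitors to the culture. One blocks MEK, the kinase that activates ERK downstream of fibroblast growth factor (FGF) receptors; ERK activity prompts ESCs to leave self-renewal and also switches on its own inhibitors. The other blocks GSK3, which marks β-catenin for destruction, so that β-catenin can act with TCF and LEF factors as it does after a Wnt signal. ESCs in serum and LIF, a cytokine acting through STAT3, are known as a mixed population, and ESCs in 2i as a more uniform one that is close to the naive epiblast of the blastocyst.

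Depth was similar in the groups, but the control libraries were less alike than the 2i libraries. The 4 libraries held 16.6 to 20.2 M estimated counts, within the 13.6 to 26.3 M of the series. The replicates of TG2A_S2iL correlated at 0.9962 and those of TG2A_ESC at 0.9882 (Pearson correlation of log2(CPM + 1) over 17547 tested genes). CPM is a gene's count per M counts of the library, with library sizes scaled by edgeR's TMM factors. The chi-square per gene between replicates was 4.01 in TG2A_S2iL and 30.2 in TG2A_ESC. The ESC markers were high in all 7 wild-type libraries used here, with Pou5f1 (Oct4) at 996 and 973 CPM in TG2A_S2iL, against 1427 and 1856 CPM in TG2A_ESC and 897, 873 and 1059.6 CPM in E14_ESC. Fibroblast genes, which would mark feeder cells, summed over 16 genes to 45.0 and 45.7 CPM in TG2A_S2iL, against 36.2 and 22.7 CPM in TG2A_ESC. Macrophage genes summed over 11 genes to 125 and 134 CPM in TG2A_S2iL, against 77.0 and 164 CPM in TG2A_ESC. Of these genes, 15 fibroblast and 8 macrophage genes passed the low-count filter and were tested. No gene of either list was called by edgeR over all libraries or by DESeq2, and 0 had an unadjusted p below 0.05 with edgeR, while edgeR fitted to the 4 libraries alone called 1 fibroblast gene higher and 2 lower.

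The 2 wild-type sets in serum/LIF also differed from each other, at 4270 genes between E14_ESC and TG2A_ESC, or 24.3% of those tested. Values of E14_ESC are therefore given beside the main ones. The difference between these sets ran in part with transcript length. Among genes of at least 10 CPM, those whose longest annotated transcript was under 1000 bases had a median log2 fold change of -0.37 in TG2A_S2iL over TG2A_ESC, and those of 4000 bases or more had 0.14. The same medians were 0.21 and -0.07 in TG2A_S2iL over E14_ESC, and -0.59 and 0.23 in E14_ESC over TG2A_ESC. A fit with a length trend for each library as an offset, added after the data were seen, called 3882 genes between the media, against 4086 without it.

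Between TG2A_S2iL and TG2A_ESC, 4086 of 17547 genes, or 23.3%, were called at an adjusted p below 0.05. Of these, 2055 (11.7%) were higher and 2031 (11.6%) lower in TG2A_S2iL, and the median log2 fold change over all tested genes was 0. These shares are to be set beside each count of list members below. For counts against E14_ESC the shares of all tested genes were 8.99% higher and 7.47% lower. The 4 libraries did not overlap between the media for 64.1% of all genes, so a lack of overlap is common here. At least 2-fold changes were found in 1678 of the called genes, 919 higher and 759 lower. All errors of fold changes (±) are standard errors from edgeR's quasi-likelihood test, and adjusted p-values are Benjamini-Hochberg values over all tested genes. Without TG2A_ESC replicate 2, 2579 genes were called, without TG2A_S2iL replicate 1, 2155, and without TG2A_S2iL replicate 2, 2146. Of the 211 genes considered by name, 153 were called and 58 of these were called in the same direction under every alternative in the closing section, which includes E14_ESC as the control and the loss of any 1 library. The account below rests on those 58 wherever it can, and calls them the stable genes.

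**Figure D1:**
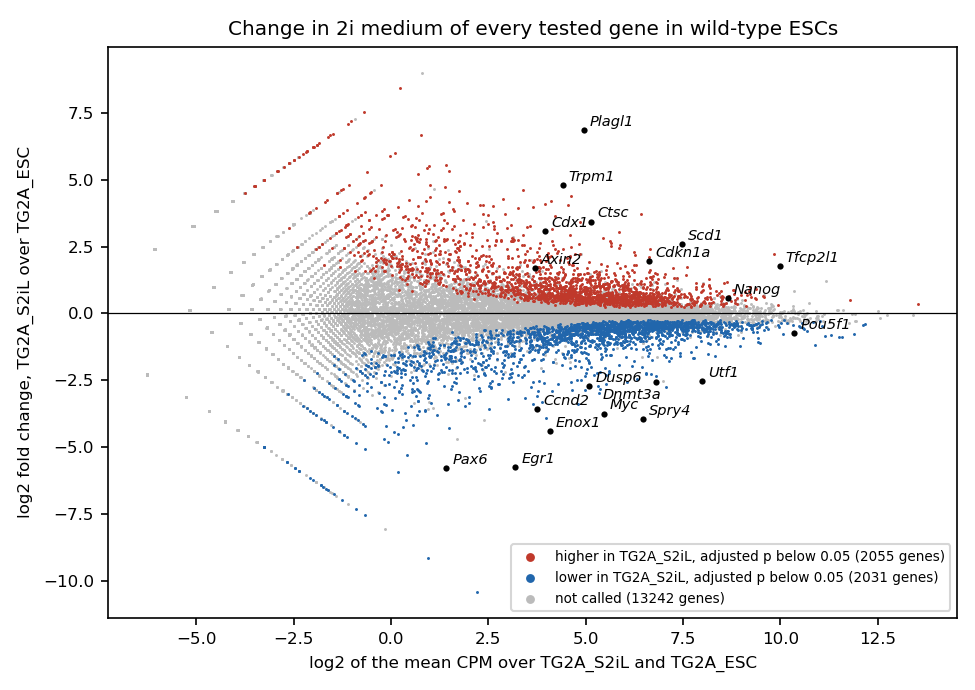
Log2 fold change of TG2A_S2iL over TG2A_ESC (y axis) against the log2 of the mean CPM over both groups (x axis), 1 point for each tested gene; genes with no counts in the 4 libraries are not drawn. Red points are the 2055 genes called higher and blue points the 2031 called lower. Named genes in black include Plagl1 at 6.86, Spry4 at -3.95 and Egr1 at -5.75, while Nanog at 0.59 was not called.

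Most ERK feedback genes, which the pathway induces to restrain itself, fell in 2i. Of 13 tested, 8 fell and 0 rose, or 61.5% called, with a median log2 fold change of -0.91. Spry4, an inhibitor of receptor signalling to ERK, was at 10.98 and 10.5 CPM in TG2A_S2iL, against 135 and 196 CPM in TG2A_ESC and 121, 132 and 139 CPM in E14_ESC. Every TG2A_S2iL library was below every library of both controls (log2 fold change -3.95 ± 0.50, adjusted p = 6.32e-05). Dusp6, the cytoplasmic phosphatase that removes the activating phosphates of ERK, was at 9.66 and 8.23 CPM in TG2A_S2iL, against 38.4 and 80.03 CPM in TG2A_ESC and 37.1, 39.5 and 36.5 CPM in E14_ESC. The 2i libraries were lowest again (log2 fold change -2.73 ± 0.54, adjusted p = 0.00179). Its nuclear relative Dusp4 was at 2.46 and 2.69 CPM in TG2A_S2iL, against 10.98 and 12.1 CPM in TG2A_ESC (log2 fold change -2.16 ± 0.48, adjusted p = 0.00408).

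Smaller falls were seen for Spred1 (log2 fold change -0.91 ± 0.18, adjusted p = 0.00152) and Spry2 (log2 fold change -0.74 ± 0.16, adjusted p = 0.00314), which act on RAS and its activation. All 5 of these are stable genes. Spred2 also fell (log2 fold change -0.49 ± 0.13, adjusted p = 0.0117), as did Dusp5 (log2 fold change -1.54 ± 0.52, adjusted p = 0.0423) and the ETS factor Etv4 (log2 fold change -1.28 ± 0.42, adjusted p = 0.0388). The ETS factors Etv5, at 338 and 329 CPM in TG2A_S2iL, against 459 and 437 CPM in TG2A_ESC, and Etv1, at 11.04 and 11.9 CPM in TG2A_S2iL, against 28.4 and 43.97 CPM in TG2A_ESC, were not called, nor were Spry1, Spred3 and Il17rd, with log2 fold changes of -0.49, -0.66 and 0.03. The count of 8 fell to 5 without either TG2A_S2iL library and without TG2A_ESC replicate 1. Dusp5, Spred2 and Etv4 were not called in those settings, and Etv4 not without TG2A_ESC replicate 2 either. Against E14_ESC, 7 of the 13 fell and 0 rose, where 7.47% of all genes fell. The members differed, since Etv4 and Dusp5 were not called there (log2 fold changes -0.49 and -1.13). Il17rd was called lower there (log2 fold change -0.49, adjusted p = 0.0437).

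The immediate-early genes, switched on within minutes of growth factor stimulation, were mixed. Of 13 tested, 4 fell and 1 rose, with a median of -0.49. Egr1, a zinc finger factor that responds to ERK, was at 0.4202 and 0.234 CPM in TG2A_S2iL, against 28.6 and 7.18 CPM in TG2A_ESC and 29.6, 37.2 and 20.9 CPM in E14_ESC. Its fall was the largest among called genes without overlap between the media and averaging 10 CPM or more in either group (log2 fold change -5.75 ± 0.84, adjusted p = 1.84e-04). Predicted gene models were left out of this ranking. Junb, an AP-1 subunit, was at 15.97 and 16.4 CPM in TG2A_S2iL, against 34.8 and 37.5 CPM in TG2A_ESC and 24.9, 22.8 and 28.4 CPM in E14_ESC (log2 fold change -1.16 ± 0.14, adjusted p = 4.88e-05). Both are stable genes. Phlda1 also fell (log2 fold change -2.57 ± 0.29, adjusted p = 2.58e-05), at 2.34 and 2.74 CPM in TG2A_S2iL, against 13.1 and 17.2 CPM in TG2A_ESC and 4.07, 2.51 and 5.75 CPM in E14_ESC, and it was not called against E14_ESC. Ier2 fell (log2 fold change -0.49 ± 0.15, adjusted p = 0.024) and was not called without TG2A_ESC replicate 2 or either TG2A_S2iL library, with a log2 fold change of 0.22 against E14_ESC.

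The AP-1 genes Fos and Jun were not called. Fos was at 2.82 and 2.69 CPM in TG2A_S2iL, against 2.602 and 1.94 CPM in TG2A_ESC, and Jun at 6.66 and 6.42 CPM in TG2A_S2iL, against 4.89 and 2.73 CPM in TG2A_ESC. The stress-induced factor Atf3 rose (log2 fold change 1.19 ± 0.35, adjusted p = 0.0206) at low values, 2.101 and 4.55 CPM in TG2A_S2iL, against 1.77 and 1.15 CPM in TG2A_ESC, and was not called without TG2A_ESC replicate 2 or TG2A_S2iL replicate 2. Dusp1, a phosphatase of stress kinases as well as ERK, was at 37.3 and 37.2 CPM in TG2A_S2iL, against 19.3 and 24.1 CPM in TG2A_ESC and not called. Among 19 FGF and ERK pathway components, 3 rose and 2 fell, or 26.3% called, against 23.3% of all tested genes. The rises were Sos1 (0.79), Map2k1, which encodes MEK1 (0.56), and Ptpn11 (0.41). Hras and Nras fell, with a log2 fold change of -0.42 for Hras. Without any 1 of the 4 libraries 0 components fell, and Ptpn11 was not called without TG2A_ESC replicate 2 or TG2A_S2iL replicate 1. Against E14_ESC, 3 rose and 2 fell, but Sos1, Map2k1, Ptpn11 and Hras were not among the called.

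Transcripts known as Wnt targets rose in part. Of 19 tested, 5 rose and 1 fell, or 31.6% called, with a median of 0.61, and 5 rose and 1 fell against E14_ESC, where 8.99% of all genes rose. The members differed, since Wif1 was not called against E14_ESC (adjusted p = 0.0521) and Sp8 was (log2 fold change 2.06, adjusted p = 0.0337). Axin2, a negative regulator of the pathway and its most widely used readout, was at 20.9 and 18.6 CPM in TG2A_S2iL, against 5.88 and 6.24 CPM in TG2A_ESC and 7.49, 6.16 and 4.67 CPM in E14_ESC. It was the list's rise among the stable genes (log2 fold change 1.70 ± 0.29, adjusted p = 6.63e-04), with every 2i library above every control library. Cdx1, a caudal homeobox factor, was at 27.01 and 28.8 CPM in TG2A_S2iL, against 1.46 and 5.19 CPM in TG2A_ESC and 1.14, 1.02 and 1.46 CPM in E14_ESC (log2 fold change 3.07 ± 0.90, adjusted p = 0.0235). Sp5, a zinc finger repressor that dampens Wnt responses, was at 4.56 and 4.26 CPM in TG2A_S2iL, against 1.61 and 0.524 CPM in TG2A_ESC and 0.1797, 0.598 and 0.672 CPM in E14_ESC (log2 fold change 2.04 ± 0.67, adjusted p = 0.0374). The receptor gene Tnfrsf19 was at 12.5 and 12.9 CPM in TG2A_S2iL, against 5.88 and 3.09 CPM in TG2A_ESC and 6.77, 6.397 and 4.55 CPM in E14_ESC (log2 fold change 1.499 ± 0.36, adjusted p = 0.00629). All 3 lay above every control library. The Wnt-binding inhibitor Wif1 rose at low values, 0.9003 and 1.11 CPM in TG2A_S2iL, against 0.2602 and 0.0524 CPM in TG2A_ESC (log2 fold change 2.63 ± 0.60, adjusted p = 0.00651).

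Lef1, a partner of β-catenin, went the other way. It was at 0.3001 and 0.234 CPM in TG2A_S2iL, against 7.701 and 2.99 CPM in TG2A_ESC and 8.504, 7.59 and 3.06 CPM in E14_ESC, and its fall was stable (log2 fold change -4.29 ± 0.79, adjusted p = 0.00107). The other 13 members were not called; these include Tcf7 at 40.03 and 41.2 CPM in TG2A_S2iL, against 41.6 and 19.4 CPM in TG2A_ESC, T (brachyury) at 0.06002 and 0.292 CPM in TG2A_S2iL, against 0.624 and 0.891 CPM in TG2A_ESC, and the receptor-removing ligases Rnf43 and Znrf3 with log2 fold changes of 1.17 and 0.06. The 5 rises became 2 without TG2A_ESC replicate 2, when Sp5, Tnfrsf19 and Wif1 were not called, and 3 without either TG2A_S2iL library, when Sp5 and Cdx1 were not called. Cdx1 was also lost without TG2A_ESC replicate 1, where 6 members rose. Of 18 pathway components, 4 rose and 0 fell, or 22.2% called, against 23.3% of all tested genes. The rises were Lrp5, Dvl1, Btrc and Apc, with log2 fold changes of 0.94, 0.58, 0.57 and 0.56. With 2 rises left without TG2A_ESC replicate 2 and 1 rise against E14_ESC, that count moved with the control libraries; Btrc was also not called without either TG2A_S2iL library, and Dvl1 not without TG2A_ESC replicate 1 or TG2A_S2iL replicate 1.

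The promoters of 2 of the risen targets are shown because they hold the letters that TCF and LEF factors are known to bind. The searched letters were CTTTGAT or CTTTGAA on either strand, in RefSeq windows of 300 bases around an annotated start, most of each before it (GRCm38.p6); the search was chosen after the values were seen. Matches were found for 5 of 14 Wnt target genes with a window (35.7%), against 2671 of 27025 genes (9.88%). The 5 were Sp5, Tnfrsf19, Sp8, Dkk1 and T, of which the first 2 rose. Capitals mark the match, which begins at -104 in Sp5 (chr2:70474673-70474972, + strand) and at -202 in 1 of the 2 windows of Tnfrsf19 (chr14:61037938-61038237, - strand) relative to the start.
Sp5: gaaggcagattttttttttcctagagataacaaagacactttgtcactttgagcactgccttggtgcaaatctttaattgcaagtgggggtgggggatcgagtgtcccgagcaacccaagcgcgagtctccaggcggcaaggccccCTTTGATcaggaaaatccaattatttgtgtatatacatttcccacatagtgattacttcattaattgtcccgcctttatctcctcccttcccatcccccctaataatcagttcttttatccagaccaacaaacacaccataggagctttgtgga
Tnfrsf19: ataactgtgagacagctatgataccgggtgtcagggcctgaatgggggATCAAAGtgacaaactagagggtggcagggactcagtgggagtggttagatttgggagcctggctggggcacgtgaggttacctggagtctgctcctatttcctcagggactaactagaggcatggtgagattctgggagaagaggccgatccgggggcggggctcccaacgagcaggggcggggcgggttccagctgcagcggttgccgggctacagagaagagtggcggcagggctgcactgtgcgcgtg

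**Figure D2:**
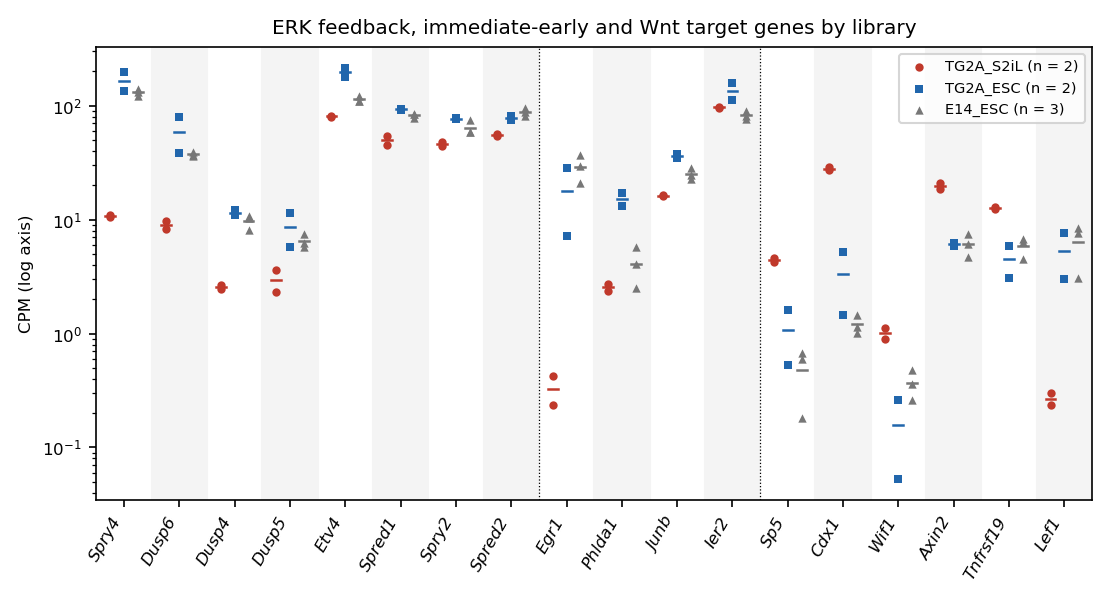
CPM on a log axis for 12 called ERK feedback and immediate-early genes that fell and 6 called Wnt target genes, with 1 point for each library and a bar at each group mean, for TG2A_S2iL (n = 2), TG2A_ESC (n = 2) and E14_ESC (n = 3). The 2i libraries lie lowest for Spry4, Dusp6, Dusp4, Egr1 and Lef1 and highest for Sp5, Cdx1, Wif1, Axin2 and Tnfrsf19, while for Ier2 they lie above the E14_ESC libraries.

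Of 14 naive pluripotency factors, the transcription network of the early epiblast, 1 rose and 3 fell, or 28.6% called, against 23.3% of all tested genes. The rises numbered 3 with DESeq2, with only the compared groups fitted and with the length offset, and 0 to 2 with 1 library left out. The list had a median of 0.23, and 0 were called against E14_ESC with edgeR (6 at an unadjusted p below 0.05). Tfcp2l1, which maintains naive self-renewal downstream of LIF and 2i, was at 1575 and 1555 CPM in TG2A_S2iL, against 349.5 and 559.6 CPM in TG2A_ESC and 862, 779 and 857 CPM in E14_ESC. It was highest in the 2i libraries (log2 fold change 1.78 ± 0.46, adjusted p = 0.0104), was not called without TG2A_ESC replicate 1, and had a log2 fold change of 0.91 against E14_ESC with an adjusted p of 0.135. Nanog was at 473 and 488 CPM in TG2A_S2iL, against 276 and 365 CPM in TG2A_ESC and 384, 306 and 271 CPM in E14_ESC, highest in 2i but not called (log2 fold change 0.59 ± 0.24, adjusted p = 0.0833). Prdm14, at 37.9 and 34.9 CPM in TG2A_S2iL, against 18.6 and 27.1 CPM in TG2A_ESC (log2 fold change 0.67 ± 0.25, adjusted p = 0.0649), was likewise above every control library and not called. Both were called with the length offset, at log2 fold changes of 0.70 and 0.75. Against E14_ESC edgeR called neither, without the offset (adjusted p = 0.0698 and 0.0916) or with it (adjusted p = 0.158 and 0.172).

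Esrrb, Klf4, Klf2, Tbx3 and Nr5a2 had log2 fold changes of 0.06, 0.40, 0.18, -0.09 and 0.46, none called, and TG2A_S2iL and TG2A_ESC overlapped for Esrrb, Klf2 and Tbx3. Zfp42 (Rex1) fell slightly (log2 fold change -0.53 ± 0.13, adjusted p = 0.00651), at 549 and 559 CPM in TG2A_S2iL, against 765 and 832 CPM in TG2A_ESC and 701, 661 and 616 CPM in E14_ESC. Nr0b1 (Dax1), a nuclear receptor that restrains Pou5f1 activity, fell (log2 fold change -1.75 ± 0.24, adjusted p = 1.18e-04), and so did Klf5 (log2 fold change -0.81 ± 0.27, adjusted p = 0.0412). None of these 3 falls was called against E14_ESC. Zfp42 was not called without TG2A_S2iL replicate 1, and Klf5 not without TG2A_ESC replicate 2 or either TG2A_S2iL library, so that the count of falls ran from 1 to 3 with 1 library left out.

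Of 12 general pluripotency genes 7 fell and 0 rose, or 58.3% called, with a median of -0.81, and 6 fell against E14_ESC. Utf1, a chromatin factor of undifferentiated cells, was at 75.5 and 73.9 CPM in TG2A_S2iL, against 455 and 417 CPM in TG2A_ESC and 303, 325 and 301 CPM in E14_ESC (log2 fold change -2.54 ± 0.14, adjusted p = 2.14e-08). Eras, an ESC-specific RAS protein, was at 12.7 and 12.7 CPM in TG2A_S2iL, against 56.04 and 67.9 CPM in TG2A_ESC and 44.5, 44.4 and 40.8 CPM in E14_ESC (log2 fold change -2.29 ± 0.15, adjusted p = 7.30e-07). The paired chromatin regulators Dppa2 and Dppa4 fell, with log2 fold changes of -2.26 ± 0.19 and -1.32 ± 0.12. Estimated counts of Dppa2 and Dppa4 were not whole, which happens where reads are shared with other genes, so their values are less certain. The same holds for Zfp42, Tfcp2l1, Etv1, Etv5 and Spry1 above, and genes with such counts in at least 3 of the 4 libraries are said below to have shared reads. These 4 genes are stable. Pou5f1 (Oct4) fell against TG2A_ESC (log2 fold change -0.74 ± 0.19, adjusted p = 0.0115), but the log2 fold change was 0.06 against E14_ESC and it was not called without TG2A_ESC replicate 2 or either TG2A_S2iL library. Sox2 was at 329 and 341 CPM in TG2A_S2iL, against 386 and 400.1 CPM in TG2A_ESC and not called.

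Of 12 formative and primed genes, which come on as the epiblast leaves the naive state, 7 fell and 0 rose in 2i, or 58.3%, with a median of -1.52, and 7 fell against E14_ESC. The falls numbered 5 without TG2A_S2iL replicate 1, 6 without TG2A_S2iL replicate 2 or TG2A_ESC replicate 1, and 8 without TG2A_ESC replicate 2. Pou3f1 (Oct6), a POU factor of the postimplantation epiblast, was at 1.92 and 1.81 CPM in TG2A_S2iL, against 17.2 and 6.13 CPM in TG2A_ESC and 7.13, 9.51 and 9.03 CPM in E14_ESC (log2 fold change -2.64 ± 0.54, adjusted p = 0.00239). Tcf15, a basic helix-loop-helix factor that primes ESCs for differentiation, was at 9.72 and 10.8 CPM in TG2A_S2iL, against 68.1 and 77.3 CPM in TG2A_ESC and 33.7, 31.8 and 21.2 CPM in E14_ESC (log2 fold change -2.82 ± 0.39, adjusted p = 1.17e-04). Fgf15 was at 2.58 and 2.04 CPM in TG2A_S2iL, against 9.52 and 8.23 CPM in TG2A_ESC and 16.2, 15.8 and 12.3 CPM in E14_ESC (log2 fold change -1.94 ± 0.37, adjusted p = 0.00162), with shared reads. Foxd3, which helps the exit from the naive state, and Lin28b, a blocker of let-7 maturation, fell, with log2 fold changes of -1.77 ± 0.20 and -0.87 ± 0.18. These 5 are stable.

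Fgf5, the standard marker of the primed epiblast, had 0 counts in both TG2A_S2iL libraries, against 0.416 and 0.629 CPM in TG2A_ESC. Its level was at least 5.89-fold lower by the floor of 3 counts over the group, and it was not called (adjusted p = 0.0544). Otx2, a driver of the formative state, was at 9.84 and 10.7 CPM in TG2A_S2iL, against 34.3 and 9.49 CPM in TG2A_ESC and 37.3, 45.1 and 47.8 CPM in E14_ESC. The TG2A_ESC libraries lay on both sides of the 2i values, and Otx2 was not called there (log2 fold change -1.09 ± 0.51, adjusted p = 0.137), while it was against E14_ESC (log2 fold change -2.08, adjusted p = 0.00899). Zic5 and Sox3 fell, with log2 fold changes of -1.28 ± 0.41 and -2.12 ± 0.46, though Zic5 was not called without TG2A_ESC replicate 1 or either TG2A_S2iL library, and Sox3 not without TG2A_S2iL replicate 1 or against E14_ESC. Zic2, Sall2 and Cdh2, with log2 fold changes of -1.02, -0.89 and -0.98, were not called.

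Of the genes for de novo DNA methylation, Dnmt3a and Dnmt3l fell, while of those for its maintenance Uhrf1 rose. Dnmt3a, a de novo methyltransferase, was at 35.2 and 30.3 CPM in TG2A_S2iL, against 216 and 170.5 CPM in TG2A_ESC and 169.6, 159.8 and 129 CPM in E14_ESC. The 2i libraries were far below all controls and the fall was stable (log2 fold change -2.56 ± 0.18, adjusted p = 2.53e-07). Dnmt3l, the catalytically inactive partner that stimulates it, was at 106 and 102 CPM in TG2A_S2iL, against 264 and 391.6 CPM in TG2A_ESC and 132, 161 and 208 CPM in E14_ESC (log2 fold change -1.65 ± 0.28, adjusted p = 5.67e-04) and was not called against E14_ESC. Dnmt3b, the second de novo enzyme, was at 102 and 104 CPM in TG2A_S2iL, against 245 and 109 CPM in TG2A_ESC and 176, 190.3 and 229.6 CPM in E14_ESC. It was not called (log2 fold change -0.78 ± 0.35, adjusted p = 0.121), and TG2A_ESC replicate 2 lay beside the 2i libraries. Without that library Dnmt3b was called at a log2 fold change of -1.26.

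Uhrf1, which brings the maintenance enzyme to copied DNA, rose (log2 fold change 0.58 ± 0.12, adjusted p = 0.00206), at 785 and 769 CPM in TG2A_S2iL, against 472 and 566 CPM in TG2A_ESC and 444, 521 and 555 CPM in E14_ESC, and is stable. Dnmt1, the maintenance enzyme itself, was at 527 and 494 CPM in TG2A_S2iL, against 419 and 563 CPM in TG2A_ESC and not called. The Tet genes, whose enzymes oxidise methylcytosine, were not called, with log2 fold changes of -0.34, -0.09 and 0.25. Tet1 was, however, at 391 and 389.8 CPM in TG2A_S2iL, against 572 and 417 CPM in TG2A_ESC and 1085, 1007 and 864 CPM in E14_ESC, and was called lower than in E14_ESC (log2 fold change -1.34). Zfp57, which guards imprints, fell (log2 fold change -0.90 ± 0.25, adjusted p = 0.0151) at 375 and 356 CPM in TG2A_S2iL, against 481 and 885 CPM in TG2A_ESC and 353, 316 and 351 CPM in E14_ESC, and was not called without TG2A_ESC replicate 2 or either TG2A_S2iL library. In all, 1 of 10 DNA methylation genes rose and 3 fell, with a median of -0.22, and 2 fell without either TG2A_S2iL library.

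**Figure D3:**
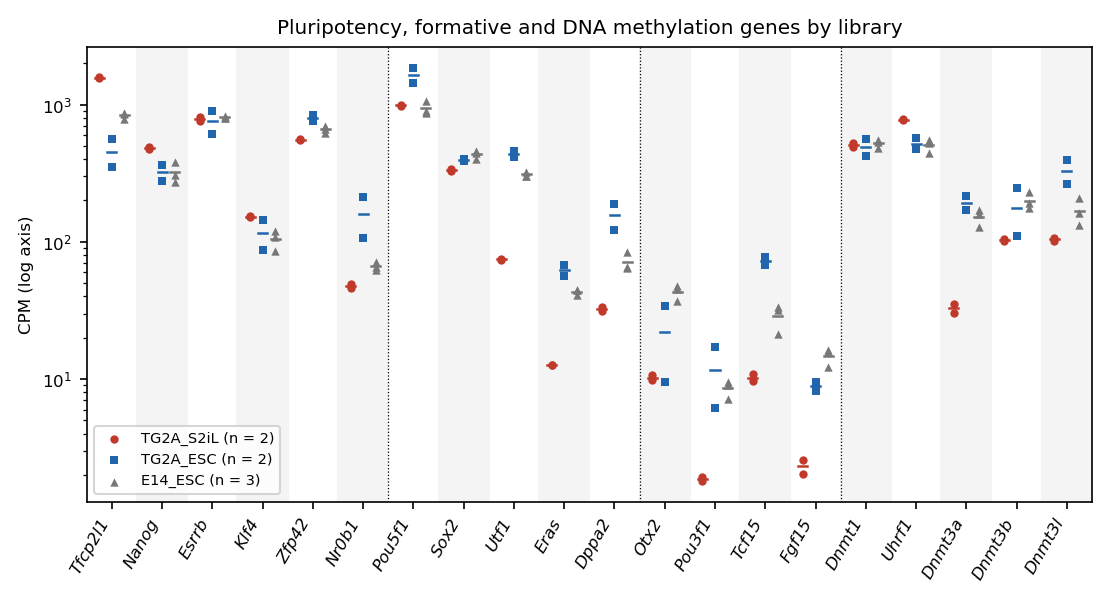
CPM on a log axis for 20 pluripotency, formative and DNA methylation genes, with 1 point for each library and a bar at each group mean, for TG2A_S2iL (n = 2), TG2A_ESC (n = 2) and E14_ESC (n = 3). Tfcp2l1, Nanog and Uhrf1 are highest in the 2i libraries, Esrrb overlaps between groups, and Utf1, Eras, Tcf15, Fgf15 and Dnmt3a are lowest in the 2i libraries; the spread of TG2A_ESC is wide for Otx2 and Dnmt3b.

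Germline genes, many of which are held silent by promoter methylation, were mixed, with 2 of 16 higher, 2 lower and a median of 0.06. The share called was 25%, against 23.3% of all tested genes. Rpl10l, a retrogene that encodes a ribosomal protein of male germ cells, rose stably (log2 fold change 1.63 ± 0.13, adjusted p = 1.23e-06), at 144 and 161 CPM in TG2A_S2iL, against 51.3 and 47.3 CPM in TG2A_ESC and 71.6, 74.9 and 66.1 CPM in E14_ESC. Dazl, an RNA-binding protein of germ cells, rose (log2 fold change 0.97 ± 0.30, adjusted p = 0.0277) but was not called without TG2A_ESC replicate 2 or either TG2A_S2iL library. Tdrd1 and Ddx4, of the piRNA pathway, fell, with log2 fold changes of -2.46 ± 0.55 and -0.92 ± 0.22. Tdrd1 was not called without TG2A_S2iL replicate 2, nor Ddx4 without TG2A_S2iL replicate 1. Without TG2A_ESC replicate 1, 5 germline genes rose.

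Imprinted genes, expressed from 1 parental allele, were called in 11 of 21 cases, 4 higher and 7 lower, with a median of -0.12. Without predicted gene models, Plagl1 (Zac1) had the largest rise among called genes without overlap and averaging 10 CPM or more in either group. It is a paternally expressed zinc finger gene (chr10:13060504-13131694, + strand, GRCm38). It was at 60.6 and 62.2 CPM in TG2A_S2iL, against 0.781 and 0.262 CPM in TG2A_ESC and 0.419, 0.658 and 1.19 CPM in E14_ESC (log2 fold change 6.86 ± 0.63, adjusted p = 3.54e-06). Meg3 and Rian, maternally expressed noncoding RNAs of chromosome 12, rose, with log2 fold changes of 2.73 ± 0.89 and 2.34 ± 0.79, and Meg3 was at 16.2 and 13.3 CPM in TG2A_S2iL, against 1.77 and 2.67 CPM in TG2A_ESC. Both were lost without any 1 of the 4 libraries and with the length offset (adjusted p = 0.0782 and 0.0758), where 1 imprinted gene rose. Dlk1, the paternally expressed gene beside Meg3, fell (log2 fold change -2.50 ± 0.62, adjusted p = 0.00795) at low values, 0.3601 and 0.584 CPM in TG2A_S2iL, against 2.81 and 2.62 CPM in TG2A_ESC, and was not called without TG2A_S2iL replicate 1. Mest, Nnat, Grb10, Phlda2, Zdbf2 and Snrpn also fell, with 3 falls left without either TG2A_S2iL library and 1 or 2 rises left without any 1 of the 4. Against E14_ESC, 4 rose and 6 fell.

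Polycomb repressive complex 2 (PRC2), which trimethylates histone H3 at lysine 27, showed an uneven pattern among its subunits. The catalytic subunit gene Ezh2 was at 222 and 214 CPM in TG2A_S2iL, against 194 and 199.7 CPM in TG2A_ESC and 173, 181 and 184 CPM in E14_ESC and was not called (log2 fold change 0.15 ± 0.16, adjusted p = 0.541). Jarid2, an accessory subunit that steers the complex to its targets, was at 304 and 300.5 CPM in TG2A_S2iL, against 681 and 729 CPM in TG2A_ESC and 715, 659 and 607 CPM in E14_ESC (log2 fold change -1.22 ± 0.12, adjusted p = 5.77e-06), a stable fall. Eed, a core subunit, and Epop, an accessory subunit, fell against TG2A_ESC, with log2 fold changes of -1.03 ± 0.16 and -0.96 ± 0.19. Eed has shared reads. Their log2 fold changes against E14_ESC were -0.17 and 0.35, neither called. In all, 4 of 12 fell and 1 rose, or 41.7% called, against 23.3% of all tested genes. Relative to E14_ESC, 1 fell and 0 rose. The rise was Ezh1 (log2 fold change 0.59 ± 0.21, adjusted p = 0.0483), which was lost without any 1 of the 4 libraries and with the length offset, and had -0.09 against E14_ESC.

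PRC1, the ubiquitin ligase complex that reads and extends Polycomb silencing, had 5 of 19 subunit genes higher and 2 lower. That is 36.8% called, against 23.3% of all tested genes. Against E14_ESC, 5 were higher and 3 lower. Bmi1 (Pcgf4), a RING finger subunit, was at 14.2 and 17.2 CPM in TG2A_S2iL, against 6.4002 and 8.91 CPM in TG2A_ESC and 5.51, 5.68 and 6.08 CPM in E14_ESC (log2 fold change 1.04 ± 0.18, adjusted p = 8.43e-04). This rise is stable. Cbx8 rose (log2 fold change 1.15 ± 0.34, adjusted p = 0.0233) but was not called without TG2A_ESC replicate 1 or TG2A_S2iL replicate 1. Phc3 rose against TG2A_ESC (log2 fold change 0.73 ± 0.14, adjusted p = 0.00135) and had -0.25 against E14_ESC. The falls were Phc1 and Cbx7, and 3 rises were counted without TG2A_S2iL replicate 1 and 4 without any other of the libraries.

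Hox genes, classical Polycomb targets that are nearly silent in ESCs, rose at a few loci. Of 33 tested, 6 rose and 1 fell, or 21.2% called, against 23.3% of all tested genes, with a median of 0.34. Against E14_ESC, where 8.99% of all genes rose, 7 Hox genes rose and 0 fell. Summed over the list they made 42.6 and 44.7 CPM in TG2A_S2iL, against 15.2 and 22.6 CPM in TG2A_ESC and 14.2, 13.99 and 12.4 CPM in E14_ESC. Of the 6 rises, 5 lie in the Hoxc cluster on chromosome 15: Hoxc4, Hoxc9, Hoxc11, Hoxc12 and Hoxc13. Hoxc12 was at 4.32 and 5.02 CPM in TG2A_S2iL, against 0.312 and 1.05 CPM in TG2A_ESC and 0.1797, 0.179 and 0.485 CPM in E14_ESC (log2 fold change 2.77 ± 0.56, adjusted p = 0.00283), and Hoxc11 at 1.62 and 1.58 CPM in TG2A_S2iL, against 0.05203 and 0.157 CPM in TG2A_ESC (log2 fold change 3.85 ± 0.73, adjusted p = 0.00148). Hoxc4, Hoxc11 and Hoxc12 are stable. Hoxb13 (2.60 ± 0.86) was not called without TG2A_ESC replicate 1 or either TG2A_S2iL library. The fall was Hoxa7 (log2 fold change -1.56 ± 0.55), not called without TG2A_ESC replicate 2 or either TG2A_S2iL library.

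Of 22 other developmental genes that PRC2 silences in ESCs, 0 rose and 3 fell. That is 13.6% called, while of all tested genes 23.3% were called and 11.6% were called lower. Pax6, a factor of eye and neural development, was at 0.06002 and 0.117 CPM in TG2A_S2iL, against 4.84 and 5.71 CPM in TG2A_ESC and 3.23, 1.26 and 1.19 CPM in E14_ESC (log2 fold change -5.79 ± 0.88, adjusted p = 3.93e-04), a stable fall. Olig1 and Wt1 fell at low values, with log2 fold changes of -3.997 ± 0.87 and -3.44 ± 0.86; Olig1 was not called without TG2A_S2iL replicate 2, nor Wt1 without TG2A_S2iL replicate 1.

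**Figure D4:**
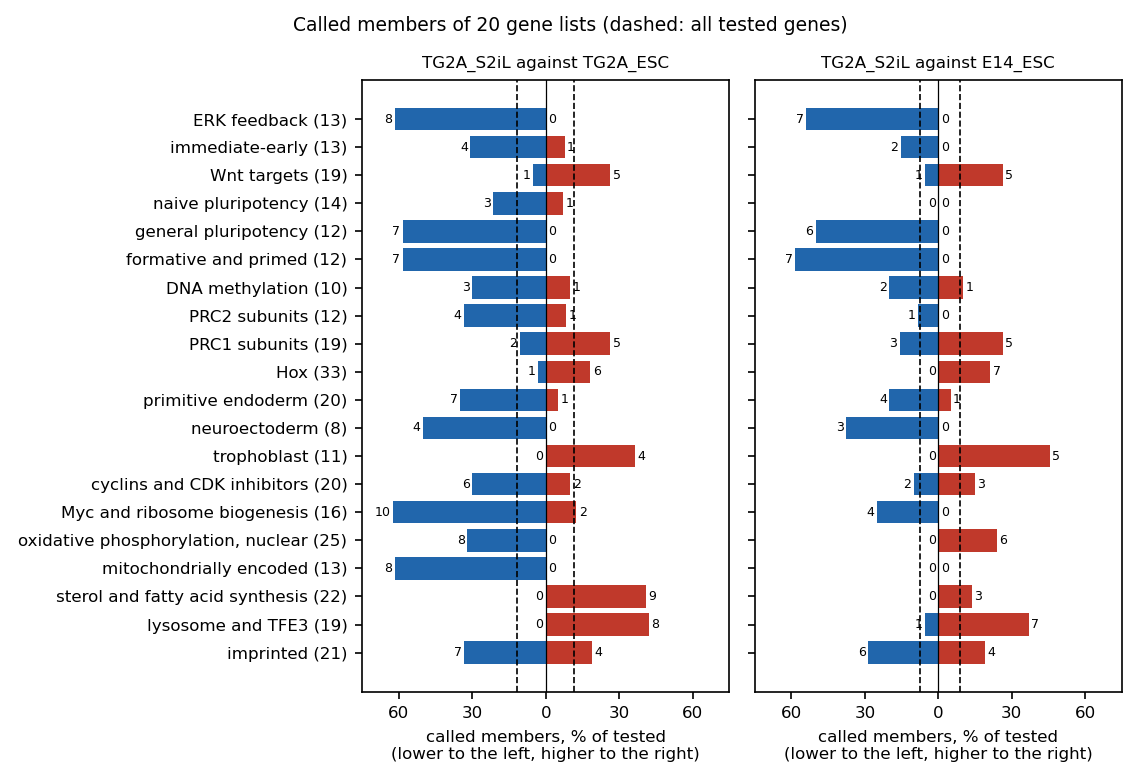
Called members as a share of the tested members (number in brackets) of 20 gene lists, lower in TG2A_S2iL to the left in blue and higher to the right in red, with the counts at the bar ends; the left panel sets TG2A_S2iL against TG2A_ESC and the right panel against E14_ESC. Dashed lines mark the shares over all tested genes, 11.6% lower and 11.7% higher on the left, 7.47% lower and 8.99% higher on the right. The ERK feedback and formative lists lie to the left in both panels, and nuclear oxidative phosphorylation genes lie to the left in the left panel and to the right in the right panel.

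Of 20 primitive endoderm genes 7 fell against TG2A_ESC, 1 rose and 12 were not called, with a median of -1.43. That is 40% called, against 23.3% of all tested genes. The TG2A_ESC libraries were themselves above E14_ESC for several of them. Gata6, a founding factor of that lineage, was at 1.74 and 1.34 CPM in TG2A_S2iL, against 3.28 and 12.3 CPM in TG2A_ESC and 1.56, 0.777 and 0.896 CPM in E14_ESC. It fell against TG2A_ESC (log2 fold change -2.33 ± 0.74, adjusted p = 0.0315) and had 0.54 against E14_ESC. Sox17 was at 0.12004 and 0.292 CPM in TG2A_S2iL, against 1.56 and 4.403 CPM in TG2A_ESC and 0.1797, 0.239 and 0.261 CPM in E14_ESC (log2 fold change -3.80 ± 1.03, adjusted p = 0.0136), and Sox7 at 0.06002 and 0.234 CPM in TG2A_S2iL, against 2.29 and 3.302 CPM in TG2A_ESC and 0.599, 0.478 and 0.597 CPM in E14_ESC (log2 fold change -4.18 ± 0.79, adjusted p = 0.00129). TG2A_ESC replicate 2 was the highest wild-type library for all 3. Col4a2, a basement membrane collagen chain, was the stable fall, at 6.902 and 7.36 CPM in TG2A_S2iL, against 39.4 and 44.4 CPM in TG2A_ESC and 16.4, 15.96 and 14.3 CPM in E14_ESC (log2 fold change -2.56 ± 0.38, adjusted p = 2.28e-04). The falls numbered 3 without either TG2A_S2iL library, 5 without TG2A_ESC replicate 2, and 4 against E14_ESC, with a median of -0.11 there. Summed over the list, levels were 1389 and 1371 CPM in TG2A_S2iL, against 1306 and 1406 CPM in TG2A_ESC and 1246, 1297 and 1251 CPM in E14_ESC. Gata6 and Sox17 were not called without TG2A_ESC replicate 2 or either TG2A_S2iL library. In these bulk libraries fewer cells of a type and less RNA per cell cannot be told apart.

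Other lineage lists moved in part. Of 8 neuroectoderm genes, 4 fell and 0 rose: Pax6, Neurod1 (-2.17), Sox11 (-1.73) and Tubb3 (-1.32), with a median of -1.05. That is 50% called, where 11.6% of all tested genes fell. Of these, Pax6 alone was called without TG2A_S2iL replicate 1, and likewise without replicate 2; Sox11 and Tubb3 were lost without TG2A_ESC replicate 1. Of 11 trophoblast genes, 4 rose and 0 fell, or 36.4% called, where 11.7% of all tested genes rose. Eomes, a T-box factor of trophoblast and of the primitive streak, was at 12.7 and 13.3 CPM in TG2A_S2iL, against 2.24 and 3.67 CPM in TG2A_ESC and 3.89, 5.74 and 4.96 CPM in E14_ESC (log2 fold change 2.14 ± 0.43, adjusted p = 0.00202). Gata2 was at 9.603 and 8.12 CPM in TG2A_S2iL, against 2.19 and 1.78 CPM in TG2A_ESC and 1.26, 2.03 and 0.858 CPM in E14_ESC (log2 fold change 2.16 ± 0.36, adjusted p = 5.77e-04). Both are stable, whereas Tead4 (1.07) and Tfap2c (1.26) were lost without TG2A_ESC replicate 2 or either TG2A_S2iL library, and Tfap2c had -0.04 against E14_ESC. Cdx2, the defining trophoblast factor, was at 1.02 and 0.642 CPM in TG2A_S2iL, against 0.781 and 0.157 CPM in TG2A_ESC and not called. Of 10 primitive streak genes only Eomes was called, and of 11 genes of the state that resembles the early cleavage embryo 0 were called by edgeR, by DESeq2 or against E14_ESC, or had an unadjusted p below 0.05.

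Several BMP and Id genes fell. Of 13 tested, 4 fell and 1 rose, or 38.5% called, against 23.3% of all tested genes. Against E14_ESC, 2 fell and 0 rose. Id3 was at 2.88 and 2.803 CPM in TG2A_S2iL, against 15.3 and 12.4 CPM in TG2A_ESC and 7.31, 8.37 and 6.53 CPM in E14_ESC (log2 fold change -2.28 ± 0.42, adjusted p = 0.00114), a stable fall; it encodes an inhibitor of differentiation-promoting helix-loop-helix factors. Id1 and Bmp4 fell, with log2 fold changes of -2.0003 ± 0.36 and -2.48 ± 0.33 and were not called against E14_ESC. Bmp2 had 0 counts in both TG2A_S2iL libraries, at least 2.36-fold below TG2A_ESC by the same floor, and was not called without TG2A_ESC replicate 2 or either TG2A_S2iL library. Of 15 Nodal pathway genes, 2 rose (Smad3, log2 fold change 1.36 ± 0.21, and Acvr2b, 0.72 ± 0.20) and 1 fell (Skil, -0.81 ± 0.24). That is 20% called, against 23.3% of all tested genes. Smad3 had 0.07 and Acvr2b -0.49 against E14_ESC, and Acvr2b and Skil were not called without TG2A_S2iL replicate 1 or replicate 2. Acvr2b was also lost without TG2A_ESC replicate 2, and Skil without replicate 1.

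Of 14 genes of LIF and STAT3 signalling 3 rose and 2 fell, or 35.7% called, against 23.3% of all tested genes. Stat3 was at 141 and 138 CPM in TG2A_S2iL, against 120.5 and 139 CPM in TG2A_ESC and its feedback inhibitor Socs3 at 169.8 and 173 CPM in TG2A_S2iL, against 125 and 132 CPM in TG2A_ESC, neither called. Gbx2, a homeobox target of LIF, was at 15.8 and 13.96 CPM in TG2A_S2iL, against 57.1 and 78.5 CPM in TG2A_ESC and 31.02, 26.8 and 26.5 CPM in E14_ESC (log2 fold change -2.18 ± 0.24, adjusted p = 1.95e-05), a stable fall with shared reads. Jak2 (1.01), Il6st (0.56) and Jak1 (0.46) rose and Socs2 (-0.79) fell, and 0 rises remained without TG2A_S2iL replicate 2 and 1 without TG2A_ESC replicate 2. Of 12 retinoid response genes only Rarg, a retinoic acid receptor, was called. It was at 35.95 and 33.3 CPM in TG2A_S2iL, against 185 and 279.9 CPM in TG2A_ESC and 151, 125 and 120.5 CPM in E14_ESC (log2 fold change -2.75 ± 0.34, adjusted p = 5.30e-05), a stable fall.

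Growth and cell cycle genes gave some of the firmest changes. Myc, which drives growth and ribosome production, was at 5.94 and 6.31 CPM in TG2A_S2iL, against 71.2 and 93.3 CPM in TG2A_ESC and 38.2, 30.5 and 31.2 CPM in E14_ESC. The 2i libraries were the lowest, and the fall was stable (log2 fold change -3.75 ± 0.22, adjusted p = 4.77e-08). Mycn fell (log2 fold change -1.03 ± 0.25, adjusted p = 0.00796) and Mycl rose (log2 fold change 1.04 ± 0.18, adjusted p = 8.08e-04). Mycn was not called without TG2A_ESC replicate 1 or TG2A_S2iL replicate 2, and Mycl had 0.34 against E14_ESC and was not called there. On the list of Myc family and ribosome biogenesis genes, 10 of 16 fell and 2 rose, with a median of -0.54. Nolc1, a nucleolar chaperone, was at 276 and 278 CPM in TG2A_S2iL, against 456 and 508 CPM in TG2A_ESC and 375, 376 and 366 CPM in E14_ESC (log2 fold change -0.80 ± 0.09, adjusted p = 3.64e-05). Against E14_ESC, 4 fell and 0 rose, with a median of -0.11.

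The D-type cyclin Ccnd2, which links growth signals to the cell cycle, was at 2.34 and 1.81 CPM in TG2A_S2iL, against 24.6 and 24.8 CPM in TG2A_ESC and 30.004, 19.7 and 15.6 CPM in E14_ESC (log2 fold change -3.57 ± 0.32, adjusted p = 2.84e-06). Cdkn1a, the p21 inhibitor of cyclin-dependent kinases, was at 159 and 156 CPM in TG2A_S2iL, against 40.2 and 41.1 CPM in TG2A_ESC and 44.5, 51.4 and 59.5 CPM in E14_ESC (log2 fold change 1.96 ± 0.38, adjusted p = 0.00168). Ccne1, the cyclin of S-phase entry, was at 132 and 138 CPM in TG2A_S2iL, against 279 and 232 CPM in TG2A_ESC and 178, 176 and 181 CPM in E14_ESC (log2 fold change -0.92 ± 0.12, adjusted p = 8.11e-05). All 3 are stable. Of 20 cyclin and inhibitor genes, 6 fell and 2 rose, and 2 fell and 3 rose against E14_ESC. Falls numbered 3 without TG2A_ESC replicate 2, 2 without TG2A_S2iL replicate 1 and 3 without TG2A_S2iL replicate 2. Trp53, which encodes p53, was at 274 and 288 CPM in TG2A_S2iL, against 476 and 553 CPM in TG2A_ESC and 437, 415 and 422 CPM in E14_ESC (log2 fold change -0.87 ± 0.16, adjusted p = 0.00111), also stable. The p53 response list of 13 genes holds Trp53 itself but not Cdkn1a. On it 1 rose and 3 fell, Trp53 among them, or 30.8% called, against 23.3% of all tested genes. Against E14_ESC 0 rose and 5 fell, while between KO10_S2iL and KO10_SL 8 rose and 2 fell. Pmaip1 and Bax were not called without TG2A_ESC replicate 2 or either TG2A_S2iL library, nor Gdf15, the rise, without TG2A_ESC replicate 2 or TG2A_S2iL replicate 2.

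In lipid metabolism, the stearoyl-CoA desaturase genes rose. Scd1 was at 314 and 296 CPM in TG2A_S2iL, against 64.5 and 35.8 CPM in TG2A_ESC and 125, 142 and 149 CPM in E14_ESC (log2 fold change 2.60 ± 0.27, adjusted p = 1.16e-05), and Scd2 at 1507 and 1519 CPM in TG2A_S2iL, against 379.7 and 262 CPM in TG2A_ESC and 779.9, 780.4 and 799 CPM in E14_ESC (log2 fold change 2.24 ± 0.27, adjusted p = 4.07e-05). The libraries did not overlap for either gene, and both rises are stable, though both genes have shared reads. In all, 9 of 22 sterol and fatty acid synthesis genes rose and 0 fell, with a median of 0.47. This became 3 without TG2A_ESC replicate 2 or either TG2A_S2iL library, and 3 against E14_ESC. Insig1 and Dhcr7, with log2 fold changes of 0.98 ± 0.28 and 0.71 ± 0.21, were among those lost in each of these settings.

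In glucose metabolism Hk1, the first enzyme of glycolysis, was at 302 and 293 CPM in TG2A_S2iL, against 103 and 75.9 CPM in TG2A_ESC and 135, 159 and 147 CPM in E14_ESC (log2 fold change 1.73 ± 0.13, adjusted p = 4.94e-07), a stable rise. Pdk1, which turns pyruvate away from mitochondria, fell (log2 fold change -1.11 ± 0.30, adjusted p = 0.0122) but was not called without TG2A_ESC replicate 1 or either TG2A_S2iL library. Of 21 glycolysis genes, 4 rose and 1 fell, or 23.8% called, against 23.3% of all tested genes. Without TG2A_ESC replicate 2, 2 glycolysis genes rose. Nuclear genes of oxidative phosphorylation were lower in 8 of 25 cases and higher in 0, with a median of -0.20. The falls numbered 2 without TG2A_ESC replicate 2, 4 without TG2A_S2iL replicate 1 and 2 without TG2A_S2iL replicate 2. Against E14_ESC the direction was opposite, with 6 higher, 0 lower and a median of 0.24. Their median transcript length was 1804 bases, and with the length offset 3 rose and 3 fell. Of 13 mitochondrially encoded genes 8 fell and 0 rose, among them mt-Nd4l (log2 fold change -3.32 ± 0.65, adjusted p = 0.0016) and mt-Nd3 (log2 fold change -2.63 ± 0.39, adjusted p = 2.24e-04), both with shared reads. Against E14_ESC edgeR called 0 of the 13, and 0 had an unadjusted p below 0.05. Mitochondrial genes took 1.96 and 2.11% of counts in TG2A_S2iL, against 2.46 and 2.72% in TG2A_ESC. Of 16 genes of the amino acid response 3 rose, Ddit3 (1.73), Asns (0.85) and Aldh18a1 (0.82), and each was lost without at least 1 library, with 1 left without TG2A_ESC replicate 2 or TG2A_S2iL replicate 1. In all, 18.8% of this list was called, against 23.3% of all tested genes.

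Many lysosomal genes rose. Of 19 genes of the lysosome and of the factors TFE3, TFEB and MITF that induce it, 8 rose and 0 fell, or 42.1%, with a median of 0.59. Against E14_ESC 7 rose and 1 fell, and 8 rose with the length offset. Lamp2, a lysosomal membrane protein, was at 88.8 and 92.9 CPM in TG2A_S2iL, against 27.1 and 28.4 CPM in TG2A_ESC and 42.9, 49.9 and 49.9 CPM in E14_ESC (log2 fold change 1.71 ± 0.18, adjusted p = 1.25e-05). Ctsb, a lysosomal protease, was at 137 and 132 CPM in TG2A_S2iL, against 40.8 and 64.99 CPM in TG2A_ESC and 44.9, 47.8 and 57.6 CPM in E14_ESC (log2 fold change 1.35 ± 0.25, adjusted p = 0.00133), with shared reads. Both are stable. Mitf rose (log2 fold change 1.33 ± 0.27, adjusted p = 0.00213), though it was not called against E14_ESC (log2 fold change 0.68), as did, among others, Neu1, Mcoln1, Atp6v1a and Npc1. The count was 5 without either TG2A_S2iL library and 11 without TG2A_ESC replicate 2; Neu1 was not called without TG2A_ESC replicate 1 or either TG2A_S2iL library.

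The promoters of Mcoln1, a lysosomal calcium channel, and Atp6v1a, a proton pump subunit, are shown because they hold the palindrome TCACGTGA, a form of the CLEAR element that TFEB and TFE3 are known to bind and which contains the E-box CACGTG. It was found in 4 of 15 list genes with a window (26.7%), against 304 of 27025 genes (1.12%). The other 2 were Ctsd and Atp6v0d1, with log2 fold changes of 0.05 and -0.09, not called. Windows, build and source are as for Sp5. Capitals mark the match, which begins at -46 in Mcoln1 (chr8:3500269-3500568, + strand) and at -132 in Atp6v1a (chr16:44139210-44139509, - strand). This search too was chosen after the values were seen, and a match is not evidence of binding. The list was made of genes known for the lysosome and its factors, so its share of matches is not a result of these data.
Mcoln1: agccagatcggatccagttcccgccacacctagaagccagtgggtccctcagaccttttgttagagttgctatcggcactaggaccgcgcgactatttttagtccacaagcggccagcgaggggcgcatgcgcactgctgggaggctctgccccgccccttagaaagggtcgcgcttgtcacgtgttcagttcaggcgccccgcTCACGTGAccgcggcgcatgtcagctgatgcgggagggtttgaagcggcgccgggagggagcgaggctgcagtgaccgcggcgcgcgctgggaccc
Atp6v1a: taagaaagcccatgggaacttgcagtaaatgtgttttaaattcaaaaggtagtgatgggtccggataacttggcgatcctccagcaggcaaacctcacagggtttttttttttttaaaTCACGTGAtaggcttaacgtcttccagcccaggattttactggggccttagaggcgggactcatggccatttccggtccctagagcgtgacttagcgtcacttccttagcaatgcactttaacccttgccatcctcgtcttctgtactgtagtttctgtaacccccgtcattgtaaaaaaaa

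Some epithelial genes rose against TG2A_ESC but not against E14_ESC. Of 12 tested, 3 rose and 0 fell against TG2A_ESC, or 25% called, against 23.3% of all tested genes. Cdh1 (E-cadherin) was at 706 and 689 CPM in TG2A_S2iL, against 461 and 343 CPM in TG2A_ESC and 578, 620.05 and 589 CPM in E14_ESC (log2 fold change 0.80 ± 0.12, adjusted p = 2.27e-04), and Cldn4, a tight junction protein, at 98.4 and 101 CPM in TG2A_S2iL, against 51.1 and 24.9 CPM in TG2A_ESC and 67.8, 99.5 and 117 CPM in E14_ESC (log2 fold change 1.39 ± 0.29, adjusted p = 0.00278). Neither was called against E14_ESC, where 0 of 12 list members rose and 3 fell. Cldn3 also rose (1.64), with -0.04 against E14_ESC, and was lost without TG2A_ESC replicate 2 or either TG2A_S2iL library, while without TG2A_ESC replicate 1 the list had 6 rises. Of 12 mesenchymal genes edgeR over all libraries and DESeq2 called 0 against TG2A_ESC, where 0 had an unadjusted p below 0.05 with edgeR. Fitted to the 4 libraries alone, edgeR called 1 higher, and over all libraries edgeR called 2 higher against E14_ESC. Of 16 actin-linked YAP and SRF target genes 2 rose (Vcl, 1.003, with shared reads, and Amotl2, 0.58) and 1 fell (Cnn1, -4.13). That is 18.8% called, against 23.3% of all tested genes. None of the 3 stayed called without TG2A_S2iL replicate 1, nor without replicate 2, and 0 rose and 3 fell without TG2A_ESC replicate 2.

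Beyond the lists, the largest rises after Plagl1 in the same ranking were Trpm1, Xlr3c, Crxos, Dmgdh, Slfn9, Bhmt, Slc16a9, Lrrc31, Car8, Xlr3b and Ctsc. Trpm1, a cation channel gene known from melanocytes and retina, was at 43.8 and 38.1 CPM in TG2A_S2iL, against 0.989 and 1.94 CPM in TG2A_ESC and 3.71, 5.201 and 5.897 CPM in E14_ESC (log2 fold change 4.80 ± 0.39, adjusted p = 1.41e-06). Crxos, a homeobox gene, was at 49.5 and 44.4 CPM in TG2A_S2iL, against 3.75 and 0.734 CPM in TG2A_ESC and 4.25, 5.14 and 4.703 CPM in E14_ESC (log2 fold change 4.38 ± 0.52, adjusted p = 3.70e-05). Ctsc, a lysosomal protease, was at 67.6 and 61.8 CPM in TG2A_S2iL, against 6.35 and 5.56 CPM in TG2A_ESC and 6.77, 6.28 and 8.696 CPM in E14_ESC (log2 fold change 3.44 ± 0.41, adjusted p = 3.64e-05). Slc16a9, a carnitine and monocarboxylate carrier, was at 18.2 and 17.8 CPM in TG2A_S2iL, against 1.09 and 1.26 CPM in TG2A_ESC, and Car8, a carbonic anhydrase relative, at 10.7 and 10.04 CPM in TG2A_S2iL, against 0.781 and 0.839 CPM in TG2A_ESC. Xlr3c, of a germline-linked X chromosome family, was at 19.99 and 20.1 CPM in TG2A_S2iL, against 1.301 and 0.314 CPM in TG2A_ESC, with shared reads. Xlr3b has shared reads as well. Slfn9, Lrrc31 and Xlr3b were not called against E14_ESC, and Slfn9 was at 44.2 and 43.6 CPM in TG2A_S2iL, against 4.63 and 0.681 CPM in TG2A_ESC and 18.6, 31.3 and 27.3 CPM in E14_ESC.

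Dmgdh and Bhmt, whose enzymes act in the choline and betaine branch of one-carbon metabolism, are neighbours on chromosome 13. Dmgdh (chr13:93674433-93752833, GRCm38) was at 34.99 and 30.2 CPM in TG2A_S2iL, against 1.14 and 2.36 CPM in TG2A_ESC and 0.599, 0.717 and 0.896 CPM in E14_ESC (log2 fold change 4.21 ± 0.31, adjusted p = 5.09e-07). Bhmt (chr13:93616675-93637961) was at 22.1 and 24.8 CPM in TG2A_S2iL, against 0.676 and 2.25 CPM in TG2A_ESC and 1.26, 0.777 and 1.05 CPM in E14_ESC (log2 fold change 3.997 ± 0.46, adjusted p = 4.12e-05), with shared reads. Bhmt2, which lies between them (chr13:93655720-93674302) and was looked up after the values of the other pair were seen, was at 10.02 and 10.6 CPM in TG2A_S2iL, against 0.624 and 1.42 CPM in TG2A_ESC, and was called higher (log2 fold change 3.33).

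The largest falls in the same ranking were Egr1, Enox1, Spry4, Crmp1, Myc, Soga3, Ccnd2, Enpp3, Islr2, mt-Nd4l, Robo4 and Cntfr. Enox1, a cell surface oxidase, was at 1.38 and 1.64 CPM in TG2A_S2iL, against 27.6 and 36.95 CPM in TG2A_ESC and 19.2, 16.5 and 18.8 CPM in E14_ESC (log2 fold change -4.41 ± 0.38, adjusted p = 2.94e-06). Crmp1, a cytoskeletal regulator of growing axons, was at 1.92 and 1.99 CPM in TG2A_S2iL, against 26.6 and 32.4 CPM in TG2A_ESC and 37.97, 39.99 and 43.9 CPM in E14_ESC (log2 fold change -3.91 ± 0.81, adjusted p = 0.00257). Enpp3, an ectonucleotidase, was at 1.86 and 2.45 CPM in TG2A_S2iL, against 21.1 and 24.4 CPM in TG2A_ESC and 20.2, 21.2 and 23.4 CPM in E14_ESC (log2 fold change -3.39 ± 0.32, adjusted p = 4.49e-06). These 3 are stable, as is Soga3 (log2 fold change -3.58 ± 0.59). Islr2, Robo4 and Cntfr were uneven in TG2A_ESC, with Cntfr at 2.04 and 2.34 CPM in TG2A_S2iL, against 9.78 and 29.5 CPM in TG2A_ESC and 3.65, 2.63 and 3.21 CPM in E14_ESC. None of the 3 was called against E14_ESC, nor without TG2A_ESC replicate 2 or without TG2A_S2iL replicate 1.

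The same change of medium was measured in the Ezh2 knockout clone, which shares no library with the wild-type comparison. Ezh2 itself was at 0.302 and 0 CPM in KO10_S2iL and 0.0813, 0.0409 and 0.0424 CPM in KO10_SL, and its wild-type values are given above. Between KO10_S2iL and KO10_SL, 6482 genes (36.9%) were called, 19.6% of all genes higher and 17.3% lower. Of the wild-type calls, 2827 were called in the same direction in the knockout, which is 69.2% of the wild-type calls and 43.6% of the knockout calls, and 47 were called in the opposite direction. The changes correlated at 0.521 (Pearson) and 0.578 (Spearman) across 17547 genes, which are not independent replicates. A trend with transcript length ran the same way in both genotypes. In KO10_S2iL over KO10_SL the median log2 fold change was -0.71 for transcripts under 1000 bases and 0.27 for those of 4000 or more. The wild-type medians were -0.37 and 0.14. The part of transcript length in the overlap and in the correlation was not tested. In the knockout Spry4 was at 8.704 and 10.5 CPM in KO10_S2iL, against 125, 127 and 121 CPM in KO10_SL, Myc at 4.58 and 3.52 CPM in KO10_S2iL, against 39.3, 33.1 and 32.5 CPM in KO10_SL and Dnmt3a at 26.97 and 25.4 CPM in KO10_S2iL, against 109.98, 88.8 and 83.99 CPM in KO10_SL, with log2 fold changes of -3.69, -3.11 and -1.85. Of the ERK feedback genes 4 fell and 1 rose, of the formative genes 7 fell, of the lysosomal genes 9 rose and 1 fell, and of the primitive endoderm genes 16 fell.

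The wild-type change less the knockout change was called for 343 genes (1.95%), 196 with the higher value in wild type and 147 with the lower; with the RLE scaling of edgeR the split was 140 and 186. Of these, 174 were among the wild-type calls. Among genes named here the difference was called for 12. Bhmt was at 29.3 and 31.5 CPM in KO10_S2iL, against 33.1, 15.98 and 20.2 CPM in KO10_SL, a log2 fold change of 0.40, and the difference of 3.60 from the wild-type change held in 15 of 15 alternatives, as did those of Dmgdh and Rpl10l. Plagl1 was at 7.35 and 8.68 CPM in KO10_S2iL, against 1.02, 0.654 and 0.551 CPM in KO10_SL. Hoxc11 was at 3.37 and 2.48 CPM in KO10_S2iL, against 2.88, 3.76 and 3.69 CPM in KO10_SL, with the KO10 libraries of both media above those of wild type. The differences of Plagl1 and Hoxc11 were each called in 6 of the 15. The number of differences was 58 and 64 without TG2A_S2iL replicate 1 and 2, 75 and 62 without KO10_S2iL replicate 1 and 2, and 151 and 146 without KO10_SL replicate 2 and 3.

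**Figure D5:**
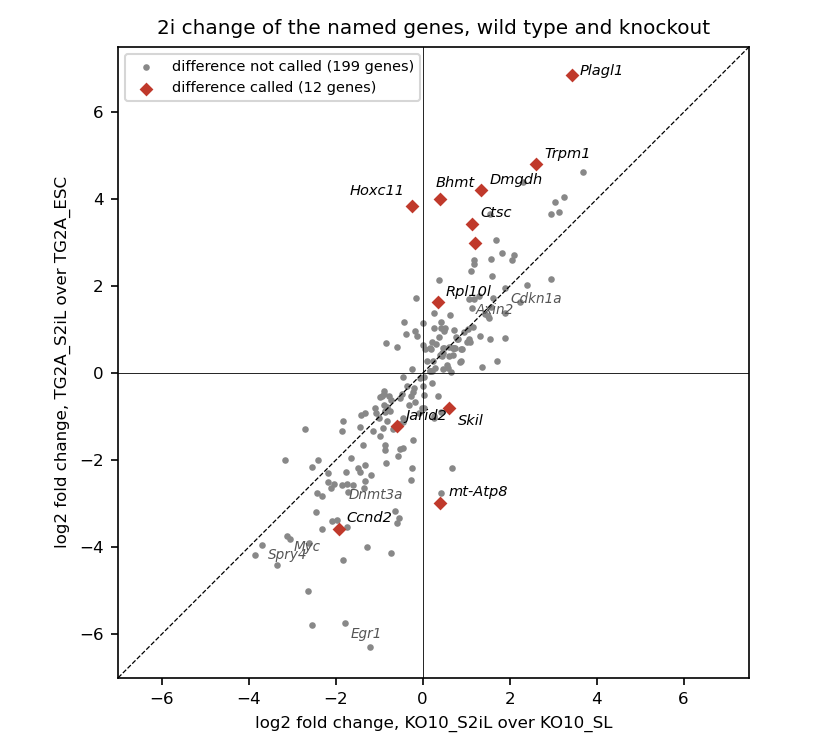
Log2 fold change of TG2A_S2iL over TG2A_ESC in wild-type cells (y axis) against that of KO10_S2iL over KO10_SL in the Ezh2 knockout clone (x axis), 1 point for each of the 211 named genes, with a dashed line where both are equal. Red diamonds are the 12 genes whose difference was called, among them Bhmt at 3.997 in wild type and 0.40 in the knockout; Spry4 and Myc lie near the line.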

How the data were processed

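RNA-seq libraries of mouse ESCs were analysed from a table of estimated counts per gene that the authors deposited. Per the submitters' processing notes, Trim Galore, STAR 2.7.6a, DESeq2 and the build mm10 were used; not given in the sources used here are the tool that counted reads, its gene annotation and its use of strand. The estimated counts were not all whole and were rounded to whole numbers. The labels name both polyA RNA and an rRNA depletion kit, so how RNA was selected is uncertain. Library totals, 13.6 to 26.3 M counts, limit precision for low genes.

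Groups were taken from sample titles. All 22 libraries in 10 groups were fitted together with edgeR 4.0.16 (R 4.3.3; quasi-likelihood test, TMM scaling, 12 residual degrees of freedom), after filterByExpr kept 17547 of 55367 genes; calls were at a Benjamini-Hochberg adjusted p below 0.05. The fit was tested on simulated data. The planned test was for whole counts, and the rounded estimated counts took their place. Tested were TG2A_S2iL against TG2A_ESC and against E14_ESC, KO10_S2iL against KO10_SL, and the difference between the wild-type and knockout changes.

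The comparison, the 38 gene lists and 22 landmark genes were chosen with earlier results of these data known. Named were the landmark genes, all members of 7 lists (naive, formative, ERK feedback, immediate-early, Wnt target, DNA methylation and LIF-STAT3), up to 4 called members with the largest changes of each other list, and the 12 largest called rises and falls without overlap and with at least 10 CPM in the higher group, leaving out predicted gene models. Promoter motifs, gene families, the length trend and a few genes said to be looked up were chosen after the values were seen. Values of a few called genes are not reported here. Replicate numbers did not pair libraries (correlation of deviations 0.0203 over 2 pairs). Gene lengths and positions came from GENCODE M21 (GRCm38), where 17180 of the 17547 genes were found once, and promoters from RefSeq. Alternatives were RLE scaling, no low-count filter, DESeq2, a fit of the compared groups alone, a replicate block, E14_ESC as control, a length offset and each library left out.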

Additional observations from a re-analysis of the deposited data

Results flagged for a closer look

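For 12 of the named genes, 11 of which are described, the change with 2i in wild-type cells (TG2A_S2iL over TG2A_ESC) differed from the change in the Ezh2 knockout clone (KO10_S2iL over KO10_SL) by edgeR's test of the difference itself. The background for this call is 1.95% of tested genes. Many named genes were chosen for a large or called wild-type change, which is itself a part of the difference. The number of named genes called can therefore not be judged against that share. Among the 4086 wild-type calls the difference was called for 174. The knockout is 1 clone, so genotype and clone cannot be told apart. Differences below are wild-type less knockout changes on the log2 scale, and each was refitted under 15 alternatives.

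Differences of 3 genes were called under all 15. Bhmt, an enzyme that remethylates homocysteine, rose by 3.997 in wild type against 0.40 in the knockout, a difference of 3.60 (adjusted p = 0.00682), with values of 2.98 to 4.69 over the alternatives. Dmgdh, of the same pathway and chromosome 13 region, rose by 4.21 against 1.35, a difference of 2.87 (adjusted p = 0.00207). Rpl10l, the germ cell ribosomal protein gene, rose by 1.63 in wild type against a change of 0.34, a difference of 1.29 (adjusted p = 0.00207).

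The Polycomb target Hoxc11 differed by 4.09 (adjusted p = 0.027, called in 6 of 15), with 3.85 in wild type and -0.23 in the knockout. The PRC2 accessory subunit Jarid2 differed by -0.636 (adjusted p = 0.048, called in 5), falling more in wild type.

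Plagl1 differed by 3.44 (adjusted p = 0.0313, called in 6 of 15), Ctsc by 2.31 (adjusted p = 0.0283, called in 5) and Trpm1 by 2.20 (adjusted p = 0.0265, called in 7), all rising more in wild type. Ccnd2 differed by -1.64 (adjusted p = 0.0445, called in 4) and fell in both genotypes, with -3.57 in wild type and -1.93 in the knockout. Skil differed by -1.42 (adjusted p = 0.0342, called in 5), with -0.81 in wild type and 0.61 in the knockout. The mitochondrially encoded mt-Atp8 differed by -3.37 (adjusted p = 0.0119, called in 13), with -2.98 in wild type and 0.39 in the knockout. With 1 library left out, the difference was called in 9 of 9 settings for Bhmt, Dmgdh and Rpl10l, in 7 for mt-Atp8, in 2 for Trpm1 and Hoxc11, in 1 for Plagl1, Jarid2 and Skil, and in 0 for Ccnd2 and Ctsc.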

How the results depend on the processing

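Calls between TG2A_S2iL and TG2A_ESC numbered 4086, and 4091 with RLE scaling, 4212 without the low-count filter, 4556 with DESeq2, 3066 from the compared groups alone, 3882 with the length offset (chosen after seeing the data) and 2888 with E14_ESC as control. They numbered 1678 at 2-fold or more and 2146 to 3621 with 1 library left out. With the replicate block, where libraries share only a number, they numbered 4013, with 5973 between KO10_S2iL and KO10_SL and 173 for the difference. Between KO10_S2iL and KO10_SL, against 6482, they numbered 9982 from the compared groups alone and 3958 to 5569 with 1 library left out. The difference between the wild-type and knockout changes had 343 calls (196 higher and 147 lower in wild type), but 326 with RLE scaling (140 and 186), 923 without the filter (404 and 519), 992 with DESeq2 (452 and 540), 1733 from the compared groups alone (821 and 912), 283 with the length offset (140 and 143) and 58 to 407 with 1 library left out; the cause was not tested.

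Of 211 named genes, 153 were called, and 58 of these kept their call and direction in every alternative, 84 with any 1 library left out, 85 with E14_ESC as control and 138 with the length offset. Among named genes called as reported or in the alternative set beside it, a change of sign was seen only with E14_ESC as control, for 22; genes called in neither were not counted. Their log2 fold changes there were: Pou5f1 0.0625, Gata6 0.54, Il17rd -0.49, Ier2 0.22, Apc -0.17, Il6st -0.0361, Zfp57 0.10, Epop 0.35, Ezh1 -0.0896, Phc3 -0.25, Tfap2c -0.0388, Acvr2b -0.49, Pfkp -0.38, Cox7a2 0.0401, Ndufb8 0.36, Cox5b 0.15, Ndufs3 0.0858, mt-Atp8 0.18, mt-Nd6 0.25, Dhcr7 -0.0116, Cldn3 -0.0438 and Islr2 0.0635. With 2 libraries in each group and uneven TG2A_ESC libraries, genes of a few CPM can be called only at large changes, and a missed call does not show that a gene did not change.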

Other observations

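Some gene families outside the lists were chosen after the values were seen and are given as values. Of all tested genes 11.7% rose and 11.6% fell, shares to set beside each count below. Of 9 tested Xlr genes, an X chromosome family active in germ cells, 6 rose and 0 fell, with a median log2 fold change of 2.73. Of 12 Rhox homeobox genes, a reproductive cluster on the X chromosome, 3 rose and 0 fell, with a median of 2.44. Rhox5 was at 76.3 and 75.2 CPM in TG2A_S2iL, against 17.2 and 4.14 CPM in TG2A_ESC. Of 11 Prame-like genes 4 rose and 0 fell, with a median of 1.05, and Pramel6 was at 8.76 and 10.5 CPM in TG2A_S2iL, against 0.572 and 0.577 CPM in TG2A_ESC. Of 16 Mage genes, also linked to the germline, 1 rose and 1 fell, with a median of 0.30. Of 7 Schlafen genes 2 rose and 0 fell, with a median of 2.03. Reads shared among copies make values within these families uncertain.

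Of 83 ribosomal protein genes, 27 fell and 1 rose, with a median of -0.29. The part of transcript length in this was not tested; among all genes of at least 10 CPM with transcripts under 1000 bases 38.3% fell and 4.5% rose, against 8.6% and 23.3% of those with 4000 bases or more. Median changes by chromosome, over genes of at least 10 CPM, lay between -0.11 on chromosome 19 and 0.10 on chromosome 14.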
